A study of Mus musculus with 2 samples.

Results

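Neurotransmitter receptor genes were described across the cerebral cortex of wild type and Pax6-/- mouse embryos at embryonic day E14.5, of the outbred NMRI strain. The members were all probe sets of the array whose single platform gene symbol is that of a receptor for glutamate, GABA, glycine, acetylcholine, serotonin, dopamine, noradrenaline, opioids or cannabinoids; the adenosine receptor symbols, which the same rule covers, added no member. They came to 68 of 12488 probe sets and stand for 56 of 8251 genes: 13 glutamate, 13 GABA or glycine, 10 acetylcholine and 16 monoamine receptor genes, with 3 opioid receptor genes and 1 cannabinoid receptor gene. The series compares cortex with and without Pax6, a transcription factor of cortical progenitors, and holds 1 array of total cortical RNA for each genotype. Embryos numbered 3 for each genotype according to the design text; pooling of their RNA is not described there, and the Pax6 allele of the mutants is not named. Since a genotype has only 1 array, differences could not be checked against replicates and were not tested.

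Ionotropic receptors are channels that open when a transmitter binds, and they are assembled from several subunits, each from a gene of its own. AMPA, NMDA, kainate and delta receptors form the glutamate family, while GABA-A, glycine, nicotinic and 5-HT3 receptors form the pentameric family. Metabotropic receptors signal through G proteins, and include GABA-B, muscarinic, dopamine, adrenergic, opioid, cannabinoid and most serotonin receptors. In the embryonic cortex, receptors are present before most synapses form, and GABA and glutamate are known to act on progenitors and on migrating neurons. Receptor transcripts of the mature brain are often scarce at this stage.

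The values are MAS5 signals, the brightness that the Affymetrix algorithm assigns to a probe set, on a linear scale in arbitrary units. A probe set's signal depends on its own probes, so signals were compared between genotypes and not between genes. Ratios are log2 of mutant over wild type after adding a pseudocount of 81.5, centred on the median of the probe sets above a signal filter of about 166, and they understate the difference of dim genes. Each gene was represented by its brightest probe set. The technical spread, taken from genes with at least 2 probe sets, was 0.82 on the log2 scale for signals below 386, 0.60 up to 863 and 0.46 above. Variation between embryos is not part of it.

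Pax6 itself read 1169 in wild type and 447 in the mutant (log2 ratio −1.29), by a probe set whose place relative to the mutation is not known. All 5 cortical and dorsal telencephalic markers measured were well above the filter in wild type, and their signals summed to 14973 in wild type but 6201 in the mutant. Of the 8 measured genes of the subpallial GABAergic lineage 6 passed the filter, 5 higher and 1, Lhx6, lower. The signals of all 8 summed to 1637 and 12399, and Dlx1 and Dlx2 made up most of the mutant sum. In whole tissue, fewer cells of a type and less RNA per cell cannot be told apart, and the part of these shifts in the receptor values was not tested.

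Receptor probe sets were somewhat dimmer than the arrays as a whole. Their median signals were 202 in wild type and 197 in the mutant, against 237 and 284 over all probe sets. In wild type 29 of the 68 lay above the median of all probe sets, and in the mutant 24, while 20 and 21 lay below the 25th percentile. Signals ran from 2.72 to 2292 in wild type and from 6.97 to 1726 in the mutant. As a reading of signal with little target RNA, 35 genes of differentiated tissues such as pancreas, liver, testis and mammary gland had a median signal of 44.8 (wild type) and 146 (mutant). Of the receptor probe sets, 9 exceeded the 90th percentile of that list on both arrays, which was 305 and 501. These 9 belonged to Gria2, Grik2, Grik5, Gabbr1, Chrnd, Drd4, Htr3a and Htr4. Such levels were not rare on these arrays. A wild type signal of 308 (Chrm4) stood at percentile 56.6 of all probe sets, and a mutant signal of 512 (Drd4) at percentile 67.4. The share of all probe sets past both levels was not counted.

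**Figure D1:**
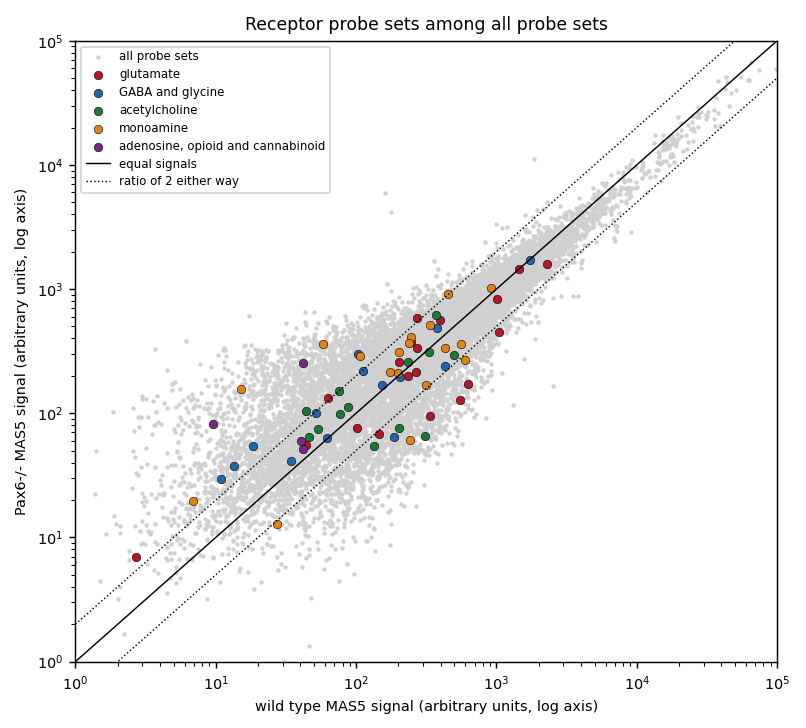
Each point is a probe set, with its wild type (x axis) and Pax6-/- (y axis) MAS5 signals, in arbitrary units on log axes; grey points are all 12488 probe sets and coloured points the 68 receptor probe sets by transmitter. Most receptor probe sets lie in the dim, wide part of the cloud, and a few, up to a wild type signal of 2292, lie in its narrow bright part.

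Of the 56 receptor genes, 31 passed the signal filter, where 5587 of all 8251 genes did. Of the 31, 15 were higher and 16 lower in the mutant, with a median log2 ratio of −0.04 against −0.02 over all passing genes. At least 2-fold differences were seen for 4 of the 31, against 10.5% of all genes above the filter. The 4 were Adra2c, which was higher (background 5.05%), and Grid1, Gria1 and Grin2c, which were lower (background 5.48%). After loess scaling the split over all genes moved from 282 higher and 306 lower to 210 and 365, and that of the receptor genes from 1 and 3 to 1 and 4. The ratio exceeded 1 technical spread for 9 of the 31 receptor genes, against 27.7% of all genes, and 2 technical spreads for 1, Grid1, against 4.28%. Without the filter, 8 of the 56 were at least 2-fold apart, against 12.2% of all genes: 3 higher (background 6.67%) and 5 lower (background 5.58%), with Oprk1, Htr1f, Chrm4 and Htr1b added. As a family, the receptor genes thus lay close to the background of these arrays. Of the 31, 3 passed the filter only through the mutant signal (Gabrb2, Adra2c and Htr2b) and 1 only through the wild type signal (Grid1), so for those 4 a difference was built in.

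**Figure D2:**
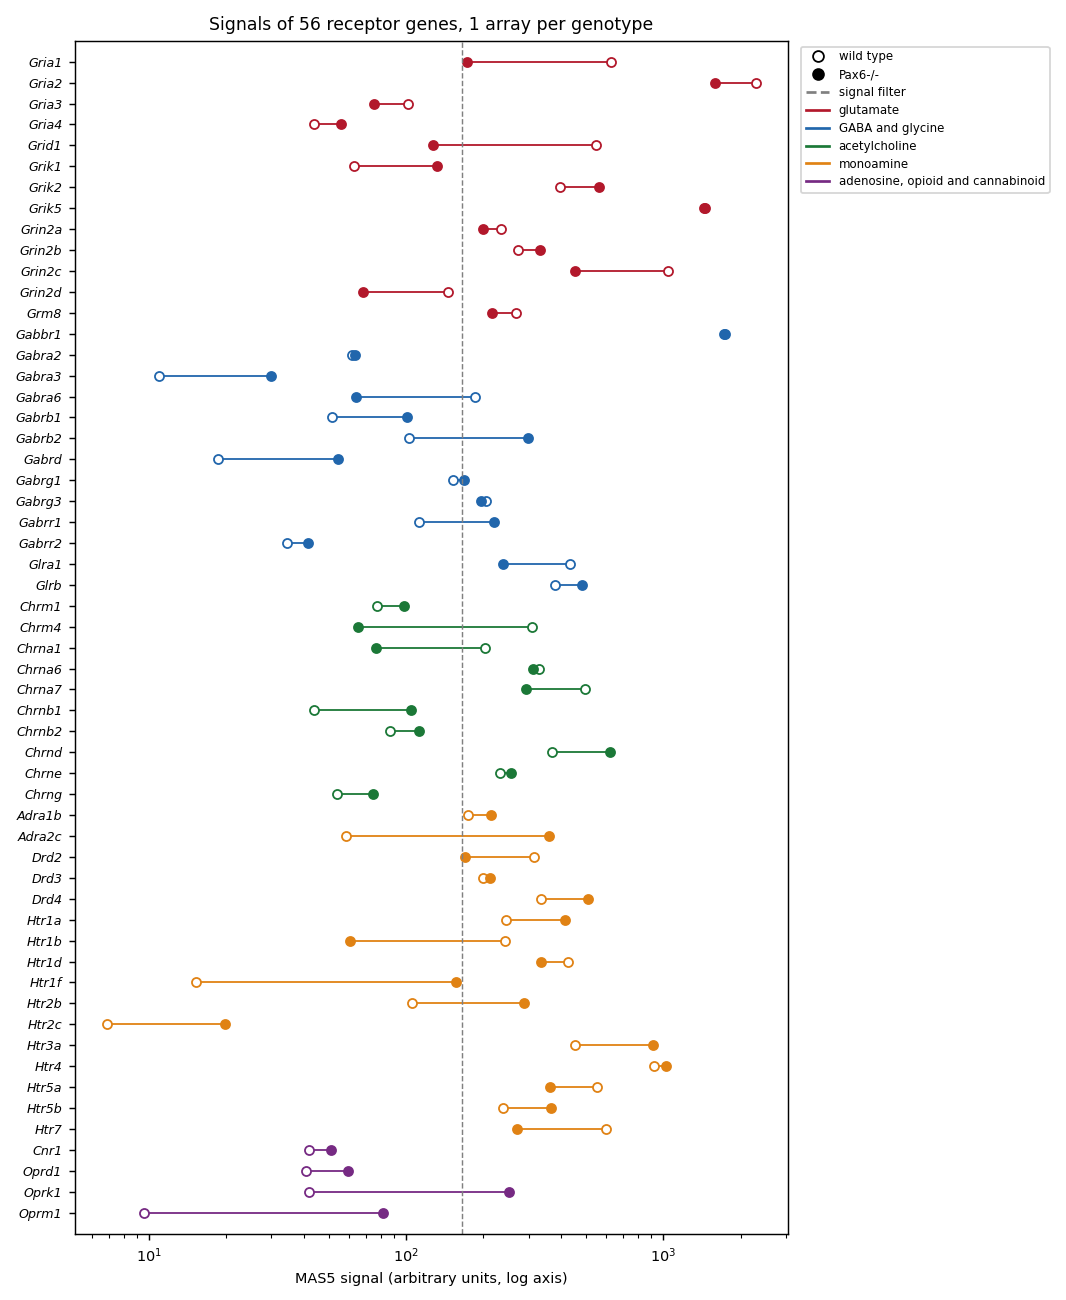
MAS5 signal (x axis, arbitrary units, log axis) of each of the 56 receptor genes by its brightest probe set, with an open circle for wild type and a filled circle for Pax6-/-, coloured by transmitter; the dashed line is the signal filter near 166. Grid1, Gria1 and Grin2c have the filled circle far to the left of the open one, Adra2c has it far to the right, and Gabbr1 and Grik5 have both circles in one place.

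RefSeq promoters (GRCm38.p6) were matched by symbol for 41 of the 56 genes. The 250 bases before the start site are shown for the 2 genes past 2-fold that have an entry, Adra2c and Grin2c, and for Gria2, an AMPA subunit gene bright on both arrays. They are printed in the sense of the gene, with GGGCGG, the GC box read on both strands, in capitals: Adra2c at chr5:35278316-35278565 on the plus strand, Gria2 at chr3:80802836-80803085 on the minus strand and Grin2c at chr11:115267244-115267493 on the minus strand.
Adra2c: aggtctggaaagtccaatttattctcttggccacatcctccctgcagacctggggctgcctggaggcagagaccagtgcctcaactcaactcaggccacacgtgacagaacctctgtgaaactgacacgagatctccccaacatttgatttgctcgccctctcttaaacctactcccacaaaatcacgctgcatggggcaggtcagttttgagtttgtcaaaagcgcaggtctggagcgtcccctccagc
Gria2: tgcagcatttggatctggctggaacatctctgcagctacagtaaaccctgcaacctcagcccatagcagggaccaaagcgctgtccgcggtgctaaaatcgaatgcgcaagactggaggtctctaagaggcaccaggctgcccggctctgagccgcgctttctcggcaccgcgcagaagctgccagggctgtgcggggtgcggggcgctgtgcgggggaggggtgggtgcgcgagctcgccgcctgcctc
Grin2c: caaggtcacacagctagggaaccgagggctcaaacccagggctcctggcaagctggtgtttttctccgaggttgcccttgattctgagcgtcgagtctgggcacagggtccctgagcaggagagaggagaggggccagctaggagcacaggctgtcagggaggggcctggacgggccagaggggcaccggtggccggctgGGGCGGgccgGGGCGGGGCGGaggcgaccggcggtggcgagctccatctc
The Grin2c stretch was the most GC-rich, at 68.8%, and held 3 GC boxes, 2 of which share bases. That of Gria2 was 64.8% GC and that of Adra2c 53.6%, and neither held one. GGGCGG was found in 20 of the 53 promoters of receptor genes and in 32.7% of all 32851 promoters of this length. TTCACGC, a core of the site bound by the Pax6 paired domain, was found in 0 of the 53 and in 1.03% of all promoters. TAATTA, a core that homeodomains bind, was found in 2 of the 53, those of Chrnb1 and Gabrg1, and in 4.84% of all. Both were read on both strands, and a match or its absence describes these letters only.

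Glutamate receptor genes were mostly lower in the mutant. Of 13, 9 passed the filter, 7 lower and 2 higher, with a median log2 ratio of −0.27. Over all 5587 genes that passed, 2884 were lower and 2702 higher. The glutamate median stayed below 0 under all 9 alternatives in scaling, pseudocount, filter and probe set choice, from −0.40 to −0.18. All of them use the same 2 arrays and mostly the same genes, so a kept sign cannot show that the direction would recur. The 3 members at least 2-fold lower (background 5.48%) belong to different subfamilies. Of these, Grid1 passed the filter only through its wild type signal, and a second Gria1 probe set went the other way.

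Among AMPA subunits, which carry fast excitatory transmission, Gria2, the subunit whose edited form keeps calcium out of the channel, read 2292 in wild type and 1592 in the mutant. The log2 ratio of −0.55 exceeded the technical spread of 0.46. The other Gria2 probe sets were at 334 and 94.5 (a set for a family of similar sequences, log2 ratio −1.29), at 201 and 260.4 (0.23) and at 2.72 and 6.97 (0.03). The 4 probe sets thus split evenly in sign. Gria1 was at 629 and 172 by its brightest probe set, a log2 ratio of −1.53 or 2.89-fold lower. The second Gria1 probe set, also above the filter, was at 246 and 376, in the opposite direction, with a log2 ratio of 0.43. When probe sets of a gene were averaged, Gria1 was at −0.55, short of 2-fold. Gria3 (102 and 75.5) and Gria4 (43.8 and 55.7) lay below the filter.

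NMDA receptors need glutamate and glycine together, and their Grin2 subunits set the channel's kinetics. Grin2c read 1047 in wild type and 453 in the mutant. The log2 ratio was −1.12, or 2.18-fold lower, where the technical spread was 0.60. It was measured by 1 probe set, and its ratio ran from −1.26 to −0.91 over 9 alternatives, past 2-fold in 8. Its main known site is the mature cerebellum. Grin2b, the Grin2 subunit best known from the embryonic forebrain, was at 273 and 333, and Grin2a at 234 and 199. Grin2d was at 146 and 68.2, below the filter. The 3 other Grin2 genes therefore did not share one direction with Grin2c.

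Among kainate receptor subunits, Grik5, a subunit that joins others to form high-affinity kainate receptors, was at 1444 and 1451 by its brightest probe set and at 1017 and 827 by the second, with log2 ratios of −0.04 and −0.32. Grik2, which can form channels alone, was at 396 and 564 and, by its second probe set, at 274 and 584. Both Grik2 probe sets were higher in the mutant, with log2 ratios of 0.39 and 0.86. Grik1 was at 62.8 and 132, below the filter.

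Grid1, a delta receptor gene whose protein binds cerebellins and helps to organise synapses, had the largest ratio of all receptor genes above the filter. It read 549.7 in wild type and 127 in the mutant, which gave a log2 ratio of −1.64, or 3.12-fold lower. The technical spread there was 0.82. It was past 2-fold under all 8 alternatives that measured it, from −2.16 to −1.10. It rests on 1 probe set. Its mutant signal was below the filter. The metabotropic receptor gene Grm8, which inhibits transmitter release, was at 267 and 216.

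Receptors for GABA and glycine, which inhibit mature neurons and can excite immature ones, showed no 2-fold difference above the filter. Of all genes above it 10.5% were that far apart, and too few of these receptor genes passed to be told from that share. Of 13 genes 5 passed the filter, 2 higher and 3 lower, with a median log2 ratio of −0.05. That median lay above 0 in 5 of 9 alternatives, quantile (0.09) and loess scaling (0.10) among them, and so has no settled direction. Gabbr1, the subunit of the metabotropic GABA-B receptor that binds GABA, read nearly the same, 1733 and 1726, with a log2 ratio of −0.05. After loess scaling it was at 0.10.

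Of 10 GABA-A subunit genes, 8 lay below the filter. Gabrb2, a beta subunit of the common GABA-A receptors, was at 103 in wild type and 299 in the mutant. Its log2 ratio of 0.998 was just short of 2-fold, and the technical spread was 0.82. Over 8 alternatives its ratio ran from 0.59 to 1.49, past 2-fold in 2. Gabrg3 was at 204 and 196. The alpha subunit genes Gabra2 (61.8 and 63.1) and Gabra3 (11.0 and 29.8) were dim on both arrays, and so were Gabrb1 (51.4 and 101) and Gabrd (18.5 and 54.3). Gabrg1 was at 153 and 168, Gabrr1 at 112 and 221 and Gabrr2 at 34.4 and 41.5. The 2 probe sets of Gabra6, an alpha subunit of cerebellar granule cells, disagreed: 185 and 64.2 by the brighter, 13.4 and 37.9 by the other. Most of the dim GABA-A genes were thus higher on the mutant array.

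The same direction was common among dim genes in general. Of the 2664 genes below the filter, 59.2% were higher in the mutant, and so were 29 of the 35 genes of other tissues. Of the 25 receptor genes below the filter, 18 were higher. Their median signal was 53.9 against 74.6.

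Both glycine receptor genes passed the filter. Glra1, a ligand-binding subunit, was at 433 and 239, a log2 ratio of −0.73. Glrb, the beta subunit that anchors the receptor to gephyrin, was at 379 and 482, a log2 ratio of 0.25. Both ratios were smaller than the technical spread at their signal, 0.82 and 0.60. The pair therefore did not differ between genotypes beyond that spread.

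Acetylcholine receptor genes showed no 2-fold difference above the filter, against 10.5% of all genes there. So few of them passed that this absence cannot be told from that share. Of 10, 4 passed, 2 higher and 2 lower, with a median log2 ratio of −0.02 (−0.18 after loess scaling and 0.02 with no centring). Chrna7, which forms a calcium-permeable receptor of a single subunit, was at 495 and 292, a log2 ratio of −0.67. Chrna6 was at 329 and 313, with a ratio of −0.11. Chrnb2, the most widespread neuronal beta subunit of the adult brain, was dim, at 87.0 and 112. The muscarinic receptor genes lay below the filter. Chrm4 was at 308 and 65.3, a wide gap that counted only without the filter, and Chrm1 was at 77.3 and 98.1.

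The other 5 nicotinic genes encode the receptor of the neuromuscular junction. Chrnd was at 371 and 619, with a log2 ratio of 0.59, within the technical spread of 0.60, and kept its direction in all 9 alternatives. Chrne was at 233 and 257 by its brightest probe set and at 133 and 54.9 and at 75.2 and 152 by the others. Chrng was at 53.9 and 74.6 and at 46.5 and 64.2, Chrnb1 at 43.9 and 105 and Chrna1 at 204 and 76.5. The muscle subunits thus did not move together. Of 12 skeletal muscle markers 8 passed the filter, 3 higher and 5 lower, and their signals summed to 2792 in wild type and 3307 in mutant cortex. The dimmest were at 11.0 and 27.8. The marker medians, wild type first, were 216 and 190. The 35 genes of other tissues, read as signal with little target RNA, had medians of 44.8 and 146, and 10 of them passed the filter. Ckm belongs to both lists, so the lists are not separate sets. Whether the marker signals stand for muscle RNA was not tested. The part of muscle cells in the Chrnd value was not tested.

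Of all 8251 genes 5587 passed the filter. Monoamine receptor genes were the receptor group most often above it, with 13 of 16. Of these, 9 were higher and 4 lower in the mutant, with a median log2 ratio of 0.17, and 1 was at least 2-fold higher (background 5.05%). The median was −0.11 with the filter at the 60th percentile. It was 0.42 when probe sets with a suffix were dropped, where Htr4 was read by another probe set (0.42 in place of 0.10). The direction of the group is therefore not settled.

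Adra2c, an alpha-2 adrenergic receptor that restrains noradrenaline release, read 58.3 in wild type and 359 in the mutant. The log2 ratio was 1.61, or 3.05-fold higher, with a technical spread of 0.82. The wild type signal was below the pseudocount, so the fold rests on it: over 7 alternatives the ratio ran from 0.93 to 1.66, past 2-fold in 6. With no pseudocount, and with the higher filter, it no longer passed the filter. It was measured by 1 probe set. Adra1b was at 174 and 214.

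Serotonin is present in the forebrain from embryonic stages on, and 8 of 11 serotonin receptor genes passed the filter. Htr3a, the channel subunit known from interneurons of the caudal ganglionic eminence, was at 454 in wild type and 914 in the mutant. Its log2 ratio was 0.85, against a technical spread of 0.60, and lay between 0.68 and 0.96 over 9 alternatives, never past 2-fold. Among the subpallial genes on the same arrays, Dlx1 was at 162 and 5982 and Dlx2 at 179 and 4180, while Lhx6 was lower, at 605 and 362, and Dlx6 (65.6 and 73.0) and Gad2 (78.3 and 95.7) were dim on both arrays. Whether the Htr3a difference goes with those cells was not tested.

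Htr7, a Gs-coupled receptor, stood on the other side. It was at 599.7 and 271, a log2 ratio of −0.997, just short of 2-fold, with a technical spread of 0.60. Over 9 alternatives it ran from −1.20 to −0.73, past 2-fold in 3. Htr5a was at 555 and 362, a log2 ratio of −0.57, while its close relative Htr5b was at 239 and 366. Htr4, also Gs-coupled, was at 922 and 1029 by its brightest probe set, a log2 ratio of 0.10. The remaining Htr4 probe sets were at 202 and 310.5 and at 27.3 and 12.8.

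The Htr1 receptors, which are Gi-coupled, split in direction. Htr1a was at 245 and 414 and Htr1d at 427 and 336. Htr1b, known from thalamic axons, was at 242 and 60.6, and Htr1f at 15.2 and 157; both lay below the filter and were 2-fold apart only without it. Of the Htr2 receptors, Htr2b was at 106 and 287 and Htr2c at 6.90 and 19.8. Thus 5 of the serotonin receptor genes that passed were higher and 3 lower, none of them 2-fold, against 10.5% of all genes above the filter. Numbers this small cannot be told from that share.

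The 3 dopamine receptor genes, all of the inhibitory D2-like class, passed the filter. Drd4 was at 337 and 512, and its log2 ratio of 0.46 was within the technical spread of 0.60. Drd2 was at 314 and 169 and Drd3 at 200.02 and 212. None differed by more than its technical spread.

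All 4 opioid and cannabinoid receptor genes lay below the filter, and so no ratio above it could be formed. Cnr1, the cannabinoid receptor of presynaptic terminals, was at 42.1 and 51.2 and Oprd1 at 40.8 and 59.4. Oprm1 was at 9.56 and 81.2. Oprk1, the dynorphin receptor, was at 41.9 and 252, the only one of the 4 with a mutant signal above the filter level of 166, and its log2 ratio was 1.39. All 4 were higher in the mutant, the direction that 59.2% of genes below the filter took.

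**Figure D3:**
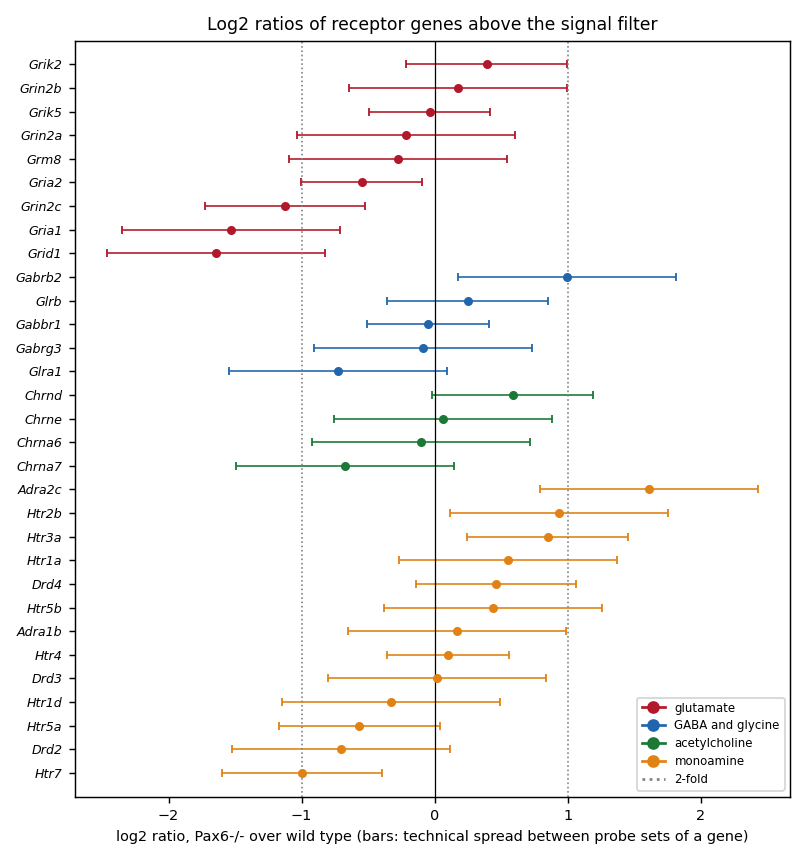
Log2 ratio of Pax6-/- over wild type (x axis) for the 31 receptor genes above the signal filter, coloured by transmitter; bars are the technical spread between probe sets of a gene at that signal, and dotted lines mark 2-fold. Glutamate receptor genes reach furthest left, to −1.64 for Grid1, Adra2c reaches furthest right at 1.61, and most bars cross 0.

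Of the 8 receptor genes with several probe sets, dim ones included, 3 had all of them on one side (Chrng, Grik2 and Grik5) and 5 did not (Chrne, Gabra6, Gria1, Gria2 and Htr4). The widest gap was that of Gria1, from −1.53 to 0.43. Counting only probe sets above the filter, 5 receptor genes had at least 2, and in 3 of them (Grik2, Grik5 and Htr4) the signs of the 2 brightest matched. Over the array this held for 54.1% of 894 genes. Grid1, Grin2c and Adra2c were read by 1 probe set each and have no such check.

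**Figure D4:**
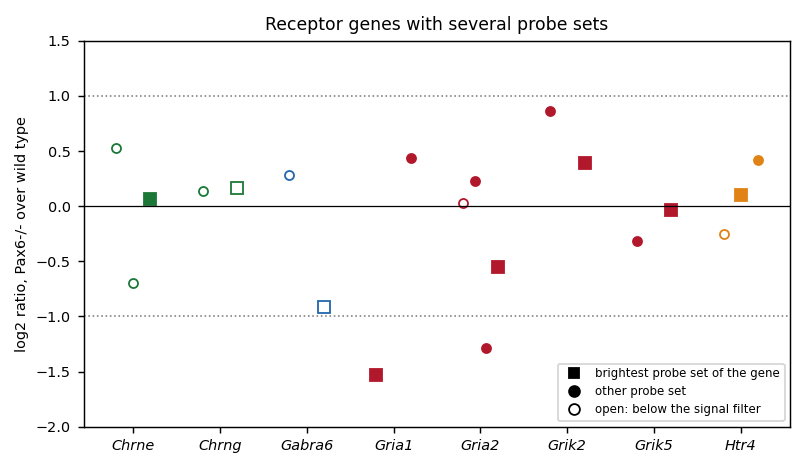
Log2 ratio of Pax6-/- over wild type (y axis) for each probe set of the 8 receptor genes with several; squares are the brightest probe set of the gene, circles the others, and open symbols lie below the signal filter. Gria1 has probe sets at −1.53 and 0.43, while both Grik2 probe sets are above 0 and both Grik5 probe sets below it.

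The genes that hold receptors in place were mostly lower, where 2884 of all 5587 genes above the filter were. The alternatives in scaling were not run on this list or on those below. Of 19 scaffold and auxiliary subunit genes on the array 17 passed the filter, 13 lower and 4 higher, with a median log2 ratio of −0.32, and 1 was at least 2-fold lower, 5.88% of the list against 5.48% of all genes. That gene was Dlg4, whose product PSD-95 anchors NMDA receptors, at 430.3 and 73.7, a log2 ratio of −1.77; it passed the filter only through its wild type signal. Cacng2 (stargazin), which carries AMPA receptors to the membrane, was at 331 and 187, a ratio of −0.66. Homer2, which binds group I metabotropic receptors, was at 146 and 252, a ratio of 0.50.

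Genes downstream of the metabotropic receptors were balanced. G protein, adenylyl cyclase and desensitisation genes above the filter numbered 25, with 12 higher and 13 lower, with a median of −0.01. At least 2-fold differences were 1 higher and 2 lower, 12% of the list, close to the 10.5% of all genes above the filter. Gnb2, a beta subunit, was at 7233 and 2918, and Gnai3, an inhibitory alpha subunit, at 7069 and 3004, with log2 ratios of −1.33 and −1.26. Rgs9, which switches off G proteins in striatal neurons, was at 124 and 374, a ratio of 1.10, and passed the filter only through its mutant signal.

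Genes for the synthesis and uptake of the transmitters leaned the other way. Of 17 above the filter, 12 were higher and 5 lower, with a median of 0.48, while 48.4% of all genes above the filter were higher. The genes of other tissues, read as signal with little target RNA, leaned the same way. Of 10 above the filter 8 were higher and 2 lower, with a median of 0.43. In the transmitter list 3 genes were past 2-fold higher and 1 lower, against 5.05% and 5.48% of all genes above the filter. Of these 4, Slc6a13, Pdyn and Ada passed the filter through 1 array only, so the direction of their difference was built in. In wild type Slc6a13 and Pdyn were just below the filter level of about 166. Slc6a13, a GABA transporter known from meninges, was at 161 and 629, a log2 ratio of 1.503. Slc6a9, the glycine transporter GlyT1, was at 286 and 949.6, a ratio of 1.44, and Pdyn, the precursor of dynorphin, at 162 and 439, a ratio of 1.05. Ada, which removes adenosine, was at 1311 and 116, a ratio of −2.86. Of 12 meningeal and mesenchymal markers 6 passed the filter, 4 higher and 2 lower, with a summed signal of 5677 and 6281, and their part in the Slc6a13 value was not tested.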

How the data were processed

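Total RNA of E14.5 cerebral cortex was measured on Affymetrix arrays as biotinylated cRNA, per the labels' protocols. The authors deposited linear intensities, 1 for each probe set and array. MAS5 is listed as the tool, per the submitters' processing notes, without version, scaling target or detection calls.

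The members and lists were chosen with earlier results of these data known. GEO's platform annotation gave 1 symbol for 10855 of 12488 probe sets, several for 396 and none for 1237; 66 control probe sets were left out of the genes. A gene was its probe set with the highest mean log2 value. The pseudocount was the 25th percentile of all signals, 81.5. The filter kept mean log2 values at or above the 40th percentile, and centring removed a shift of 0.05. The technical spread compares the log2 ratios of a gene's 2 brightest passing probe sets: the SD of their difference over the square root of 2, from 112, 289 and 493 genes in 3 equal ranges of signal; genes below the filter took the dimmest range. No test between genotypes is possible with 1 array each, and the number of arrays limits the precision.

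Log2 ratios are given for Pax6, members at least 2-fold apart above the filter, the 4 brightest and the 2 most different of each transmitter group, genes with several probe sets, and list members at least 2-fold apart or among the 3 most different. Scripts were tested on simulated arrays. The alternatives left out the centring, the filter or the pseudocount (with a floor at the 1st percentile). Others took the 50th percentile as pseudocount, the 60th as filter, or thresholds of 1.5-fold and 3-fold. Scaling was also done by quantiles or by loess (fraction 0.4, with 3 iterations). The rest averaged a gene's probe sets, or dropped every probe set with a letter suffix in its name, not only those for shared probes. Python 3.11.15, numpy 2.4.6, pandas 2.3.3, statsmodels 0.14.6 and matplotlib 3.10.9 were used.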

Additional observations from a re-analysis of the deposited data

How the results depend on the processing

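Of the 21 receptor genes above the filter with a ratio, 17 kept their direction in every alternative that measured them and 19 stayed within 1 technical spread; 6 more lay below the filter, where dropping it was the only alternative and left their ratios as they were. Above the filter, Gria1 moved to −0.55 with the mean of its probe sets and Gria2 to 0.23 without probe sets with a suffix. The number of receptor genes at least 2-fold higher, 1, was 2 with no centring (Adra2c and Gabrb2) or with no pseudocount (Gabrb2 and Htr2b, while Adra2c no longer passed the filter), 0 with the 50th-percentile pseudocount or the 60th-percentile filter, 3 with no filter and 5 at 1.5-fold. The number at least 2-fold lower, 3, was 5 with no filter, 1 with the 60th-percentile filter, 7 at 1.5-fold and 1 at 3-fold. It was 2 with the 50th-percentile pseudocount (Grin2c lost) or with the mean of probe sets (Gria1 lost). With quantile scaling, loess scaling or no pseudocount it was 4, with Htr7 added. Under other filters and thresholds the counts differ because fewer or more genes were tested or the threshold moved. With no centring Gabrb2 went from 0.998 to 1.04, and with the 50th-percentile pseudocount Adra2c went from 1.61 to 0.93. Over all genes the counts were 447 higher and 437 lower with no pseudocount, 90 and 128 with the 50th-percentile pseudocount, 550 and 460 with no filter, 77 and 131 with the 60th-percentile filter, 785 and 844 at 1.5-fold and 58 and 68 at 3-fold. The median of the monoamine group, 0.17, was −0.11 with the 60th-percentile filter and 0.42 without probe sets with a suffix, where other genes or probe sets enter. The group medians for all receptor, glutamate, GABA and glycine, and acetylcholine receptor genes moved by less than the error that the technical spread gives a median of that many genes. The opioid and cannabinoid group had no median above the filter. No paired analysis was possible because each genotype has 1 array with no replicate number, and for the same reason no replicate could be left out. Dim signals limit most of these genes.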

Other observations

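In 5 places, 2 receptor genes lie beside each other on a chromosome with no other protein-coding gene between them in the RefSeq table of GRCm38.p6. The pairs are Chrnd and Chrng, Gabra6 and Gabrb2, Gria2 and Glrb, Gabrr1 and Gabrr2, and Gabra2 and Gabrg1. By the brightest probe set of each gene, Gria2 was lower in the mutant (log2 ratio −0.55) while Glrb was higher (0.25). Gabra6 was at −0.92 and Gabrb2 at 0.998, the widest gap of the 5 pairs, although the second Gabra6 probe set was at 0.29. Chrnd and Chrng were both on the higher side, at 0.59 and 0.16. Gabrr1 was higher, at 112 and 221, while Gabrr2, Gabra2 and Gabrg1 differed little between the arrays. Chrng, Gabra6, Gabrr1, Gabrr2, Gabra2 and Gabrg1 lay below the filter, where 59.2% of all genes were higher. These values are descriptions of 1 array per genotype.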
